A study of Mus musculus with 8 samples.

Results

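Neutrophils and monocytes are drawn into tissue by chemokines, small secreted proteins that bind G protein-coupled receptors on leucocytes. CXC ligands with an ELR motif, such as CXCL1, CXCL2, CXCL3 and CXCL5, act through CXCR2 and attract neutrophils. CCL2 and CCL7 act through CCR2 and attract monocytes, CCL9 binds CCR1, and CCL20 is the ligand of CCR6. CXCL16 and CX3CL1 are made as membrane-anchored proteins, are released by proteases, and bind CXCR6 and CX3CR1. Many of these genes are transcribed in response to NF-kappaB, and their mRNAs are short-lived.

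The genes for these 10 chemokines, Cxcl1, Cxcl2, Cxcl3, Cxcl5, Cxcl16, Ccl2, Ccl7, Ccl9, Ccl20 and Cx3cl1, were chosen by symbol through their Entrez identifiers, and all 10 were among the 27179 genes of the count table. RNA-seq counts were analysed for 4 mouse mammary tumour cell lines of BALB/c origin, with 2 biological replicates of each and no treatment named in the labels. 4T1.2 is a line that spreads from the mammary fat pad to bone, 4T1 is its close relative, and 66cl4 and 67NR are related lines of lower metastatic potential. The comparison of 4T1 and 4T1.2 with 66cl4 and 67NR addressed which secreted factors set the more metastatic lines apart, and the first 2 lines are called the metastatic pair here. Each group is 1 cell line, so a difference between groups cannot be told apart from a difference between individual lines, and p-values measure the spread between cultures of a line.

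Library totals ran from 37159840 to 66269681 counts, and a floor of 3 counts corresponded to between 0.0486 and 0.0818 CPM, the read count scaled to a common library size with TMM factors. Replicates differed by more than sampling noise in every line. The labelled tumour type was checked against epithelial markers. Krt8, a keratin of simple epithelium, was present in all lines at 463 to 1601 CPM. Epcam, an epithelial adhesion molecule, was found at 13.7 and 14.2 CPM in 4T1.2 and at 38.9 and 46.6 CPM in 4T1, whereas 66cl4 had 0 counts and 67NR had 1 count. Cdh1, which encodes E-cadherin, was at most 7 counts in any 66cl4 or 67NR library, so both of these markers were at or near 0 in these 2 lines. Krt18, the keratin partner of Krt8, set them apart from each other, at 115 and 113 CPM in 66cl4 and at 0.818 and 1.13 CPM in 67NR, beside 541 to 1199 CPM in the metastatic pair.

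Leucocytes make several of these chemokines themselves, and a list of 14 leucocyte markers was therefore examined. Adgre1, Cd3e and S100a9 had 0 counts in all 8 libraries, Ptprc, the pan-leucocyte CD45 gene, had at most 2 counts and Ly6g at most 5. The summed level of the list was 12.5 to 13.6 CPM in 4T1.2, 8.87 to 10.5 in 4T1, 19.6 to 24.3 in 66cl4 and 26.3 to 26.9 in 67NR. The test covered 5 of these markers, and called 3 of them higher and 2 lower in the metastatic pair, beside 38.1% and 38.6% of all genes tested. Most of the sum was Lyz2, a lysozyme gene, in 66cl4 and 67NR (17.6 to 22.6 CPM), and S100a8 and Cd68 in 4T1 and 4T1.2. Among 6 endothelial markers, Kdr had at most 1 count in any library. Tie1 had 706 counts over both libraries of 4T1 and 81 over those of 4T1.2, beside 1 each in 66cl4 and 67NR. The summed level of the 6 markers was 1.55 to 1.71 CPM in 4T1.2, 9.44 to 9.75 in 4T1, 0.334 to 0.463 in 66cl4 and 0.382 to 0.389 in 67NR. In these bulk samples, fewer cells of a type and less RNA per cell cannot be told apart.

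The proximal promoters of Cxcl1, Cxcl2 and Cxcl3 are shown because the 3 genes carry the same NF-kappaB sequence although their levels ranged from no count to 102 CPM. Promoter windows of RefSeq (build GRCm38.p6) were at hand for 6 of the 10 genes, Cxcl1, Cxcl2, Cxcl3, Ccl9, Ccl20 and Cx3cl1. The 250 bases before each start were searched on both strands for the kappaB motif GGGRNNYYCC and for the AP-1 motif TGANTCA. In these motifs R is A or G, Y is C or T and N is any base. Each sequence below is the last 130 bases before the start, 5′ to 3′ on the strand of the gene, and capitals mark the kappaB match.
Cxcl1, chr5:90891115-90891244, plus strand: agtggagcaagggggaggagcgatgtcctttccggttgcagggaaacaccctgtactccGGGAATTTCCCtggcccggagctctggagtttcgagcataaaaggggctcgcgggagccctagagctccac
Cxcl2, chr5:90903769-90903898, plus strand: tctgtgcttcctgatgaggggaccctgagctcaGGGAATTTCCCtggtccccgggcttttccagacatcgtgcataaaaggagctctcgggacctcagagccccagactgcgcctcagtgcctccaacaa
Cxcl3, chr5:90785971-90786100, plus strand: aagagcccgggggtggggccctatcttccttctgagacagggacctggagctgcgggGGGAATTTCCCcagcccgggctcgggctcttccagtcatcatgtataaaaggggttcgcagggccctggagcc

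The match GGGAATTTCCC lay 71 to 61 bases before the start of Cxcl1, 97 to 87 bases before that of Cxcl2 and 73 to 63 bases before that of Cxcl3, and it was read as a pair of overlapping matches, 1 on each strand. Matches to kappaB were found in 5 of the 6 promoters, all but that of Cx3cl1, and in 7.25% of all 32851 windows of the same length. By gene, 8.23% of 27025 genes had a match. The AP-1 motif was found in 1 of the 6, Ccl9, and in 6.75% of all windows (7.82% of genes). The promoters of Ccl20 and Ccl9 are given for their place among the CC ligands of the chosen genes. Of these, Ccl20 was the most raised in the metastatic pair and Ccl9 the only one lower there. Capitals mark the kappaB match, which in both reads on the strand opposite to the gene, and in Ccl9 also the AP-1 match, which lies upstream of it without overlap.
Ccl20, chr1:83116636-83116765, plus strand: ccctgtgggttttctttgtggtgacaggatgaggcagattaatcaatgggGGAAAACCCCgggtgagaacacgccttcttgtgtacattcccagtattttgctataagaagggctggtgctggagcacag
Ccl9, chr11:83578637-83578766, minus strand: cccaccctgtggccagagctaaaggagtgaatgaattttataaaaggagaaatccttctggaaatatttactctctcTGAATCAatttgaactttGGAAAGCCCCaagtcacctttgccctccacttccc

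The chemokine genes did not move together. In the comparison of 4T1/4T1.2 with 66cl4/67NR, Cxcl16, Ccl2 and Ccl20 were far higher in the metastatic pair, Cxcl3 and Ccl9 were far lower, and Cxcl1, Cxcl5, Ccl7 and Cx3cl1 differed by less. Cxcl2 had too few counts for a test. All 9 tested genes passed the threshold, an adjusted p of 0.05, with 6 higher and 3 lower, while 76.8% of all 13927 genes tested passed in either direction, 38.1% higher and 38.6% lower. With so many genes called, that count does not set the chemokines apart. The median log2 fold change of the 9 genes was 0.68, beside -0.01 over all genes tested. The 4 libraries of 1 pair lay wholly above the other 4 for 3 of the 9 genes and wholly below for 2, compared with 27.8% and 27.7% of all genes (55.5% in either direction).

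**Figure D1:**
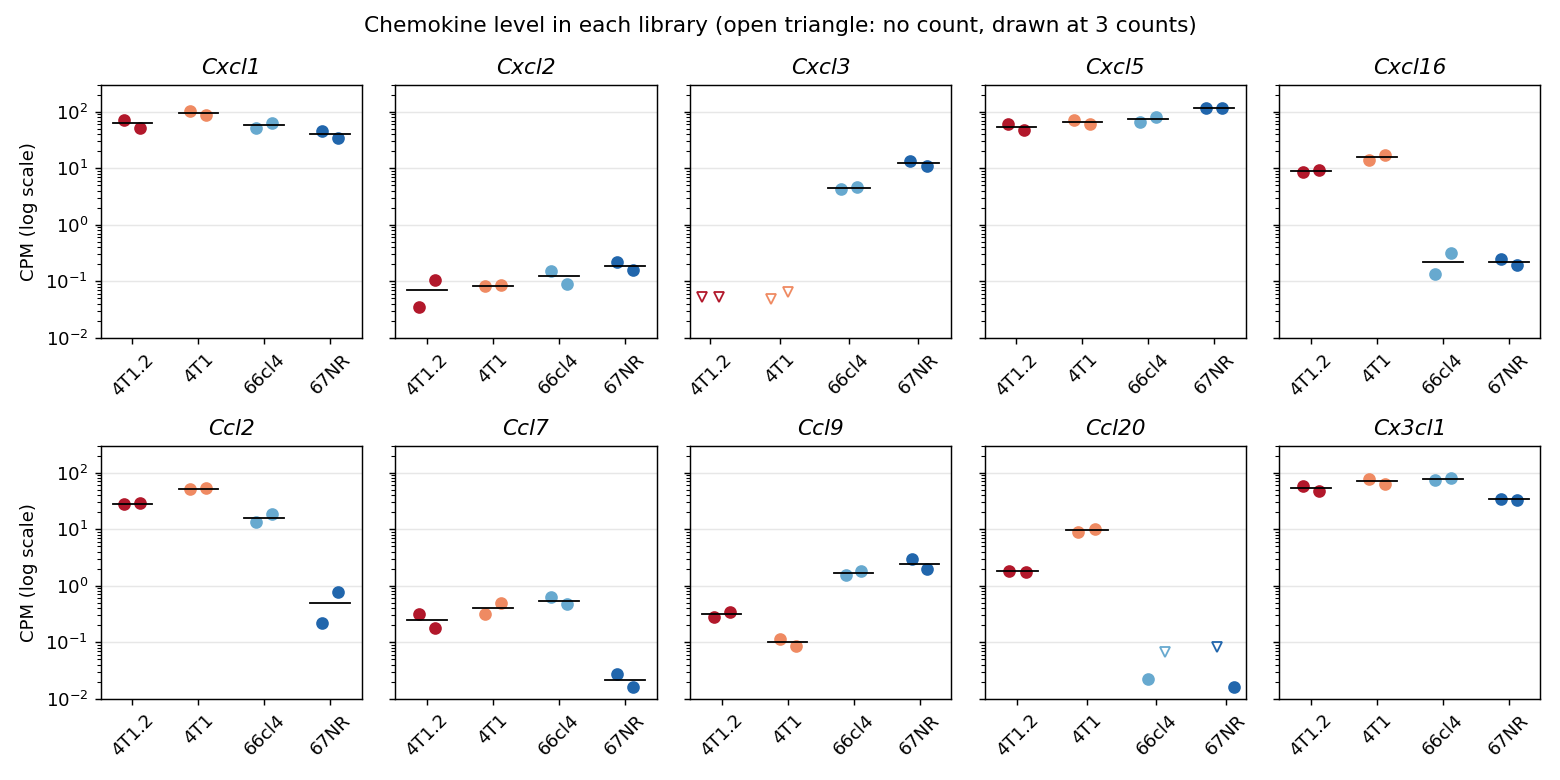
Level of each of the 10 chemokine genes in CPM (log axis) in the 4 cell lines, with 1 point per library, a line at the mean of 2 libraries and an open triangle, at the level of 3 counts, for a library with no count. Cxcl1, Cxcl5 and Cx3cl1 lie above 30 CPM in all 8 libraries, whereas Cxcl3 has no count in 4T1 and 4T1.2, and Ccl20 has at most 1 count in 66cl4 and 67NR.

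Cxcl1 (Entrez 14825, chr5:90891245-90893121) encodes KC, a major neutrophil attractant of the mouse. It was measured at 72.8 and 52.3 CPM in the libraries of 4T1.2, 102 and 88.8 in those of 4T1, with 51.5 and 64.7 in 66cl4 against 45.4 and 34.9 in 67NR. Only 4T1.2 and 66cl4 overlapped, and 4T1 lay above the other lines. The pooled log2 fold change was 0.68 (SE 0.13, edgeR adjusted p = 0.000843). Between single lines, 4T1 exceeded 67NR by 1.25 on the log2 scale (SE 0.19, edgeR adjusted p = 0.000207), and 4T1.2 and 66cl4 differed by 0.11 (SE 0.18, edgeR adjusted p = 0.620). By mean level the order was 4T1, then 4T1.2 and 66cl4, which did not differ beyond their spread, and then 67NR. The step from 66cl4 to 67NR was 0.54 (edgeR adjusted p = 0.0385) and that from 4T1 to 4T1.2 was -0.61 (0.0440 by the same test). Both steps lost their call when a single library was left out, with p-values up to 0.265 without the second 67NR library and 0.239 without the second 4T1.2 library. The call of 4T1.2 over 67NR (0.64, edgeR adjusted p = 0.0109) was lost without the first 4T1.2 library (0.102) or the second 67NR library (0.108), and that of 4T1 over 66cl4 (0.71, edgeR adjusted p = 0.00585) without the first 66cl4 library (0.0555). The call of 4T1 over 67NR was kept in all 8 fits that left out 1 library.

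Cxcl5 (Entrez 20311, chr5:90759298-90761625), which encodes LIX, another CXCR2 ligand, ran the other way. Its levels were 61.4 and 47.9 CPM in the libraries of 4T1.2, 70.4 and 61.4 in those of 4T1, with 65.7 and 81.2 in 66cl4 against 119 and 117 in 67NR. 67NR stood above every other library, and 4T1 and 66cl4 overlapped. The pooled log2 fold change was -0.63 (SE 0.10, edgeR adjusted p = 0.000231). 67NR exceeded 66cl4 by 0.68 (SE 0.14, edgeR adjusted p = 0.00331) and 4T1.2 by 1.11 (SE 0.14, 7.29e-05). Neighbours in the order below 67NR did not differ beyond their spread, as 4T1 against 66cl4 gave -0.16 (SE 0.14, edgeR adjusted p = 0.343) and 4T1.2 against 4T1 gave -0.27 (SE 0.14, 0.225). Across both steps, 4T1.2 was lower than 66cl4 (-0.43, SE 0.14, edgeR adjusted p = 0.0214). That call was lost without the second 4T1.2 library (-0.25) or the second 66cl4 library (-0.27).

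Cxcl3 (Entrez 330122, chr5:90786101-90788093) was the sharpest case among the neutrophil attractants. No count was found in any of the 4 libraries of 4T1 and 4T1.2, whereas 66cl4 had 194 and 211 counts and 67NR had 494 and 680. These counts corresponded to 4.28 and 4.70 CPM in 66cl4 and 13.5 and 11 CPM in 67NR, and the groups did not overlap. Against a floor of 3 counts over the group, Cxcl3 was at least 539-fold lower in 4T1/4T1.2 (edgeR adjusted p = 2.13e-08 for the pooled comparison). Taken line by line, 67NR was at least 451-fold higher than 4T1.2 and 66cl4 at least 170-fold higher. Within the less metastatic pair, 66cl4 was lower than 67NR (log2 fold change -1.44, SE 0.17, edgeR adjusted p = 0.000366).

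Cxcl2 (Entrez 20310), the gene for MIP-2, was barely detected in any line. Its counts were 2 and 6 in 4T1.2, 5 and 4 in 4T1, with 7 and 4 in 66cl4 against 8 and 10 in 67NR, which did not pass the filter on low counts. Without that filter the pooled log2 fold change was -0.94 (edgeR adjusted p = 0.136). Of the 75-base stretches of Cxcl2, 4.57% were shared with Cxcl3, so a small share of reads could be assigned to either gene.

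**Figure D2:**
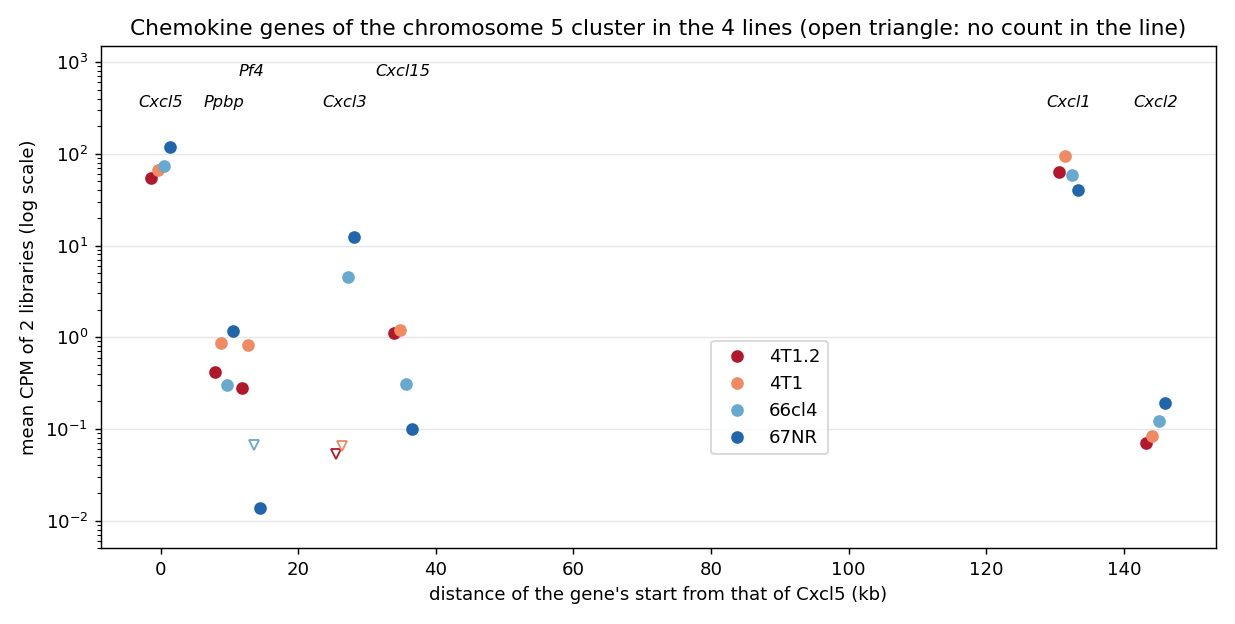
Mean CPM of 2 libraries (log axis) for the 7 chemokine genes of the chromosome 5 cluster, placed by the distance of each start from that of Cxcl5 in kb, with the lines of a gene spread sideways and an open triangle, at the level of 3 counts, for a line with no count. Cxcl5 and Cxcl1 are high in all lines, while Cxcl3 is found in 66cl4 and 67NR and Pf4 mainly in 4T1 and 4T1.2.

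These 4 genes lie in 1 cluster on chromosome 5 with Ppbp, Pf4 and Cxcl15, which encode further CXC ligands, and neighbours there had opposite patterns. Pf4, the gene for platelet factor 4, lies beside Cxcl3 in the gene order, and was found at 12 and 20 counts in 4T1.2 and 42 and 44 in 4T1, but at 0 in both 66cl4 libraries and at 1 and 0 in 67NR. That is a count ratio of 101 (95% interval 17.7 to 4010, counting error only) in favour of the metastatic pair. Cxcl15, on the other side of Cxcl3, had 68, 59, 54 and 71 counts in the libraries of 4T1.2 and 4T1, and 13, 15, 5 and 4 in those of the other pair. The metastatic pair was higher by 2.75 on the log2 scale (SE 0.30, edgeR adjusted p = 1.51e-05). Cxcl3 thus had no count in the 2 lines in which both neighbours were higher. Ppbp was low in all lines, at 8 to 62 counts, with a pooled log2 fold change of 0.02 (SE 0.26, edgeR adjusted p = 0.949).

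Ccl2 (Entrez 20296, chr11:82035577-82037452), the main monocyte attractant of the group, followed a graded pattern. It was measured at 28.0 and 28.5 CPM in the libraries of 4T1.2, 50.7 and 53.0 in those of 4T1, with 13.6 and 18.2 in 66cl4 against 0.218 and 0.761 in 67NR. No 2 lines overlapped, and 67NR stood far below the rest with 8 and 47 counts. The pooled log2 fold change was 3.70 (SE 0.19, edgeR adjusted p = 4.45e-08). Within the less metastatic pair, 66cl4 exceeded 67NR by 4.86 (SE 0.30, edgeR adjusted p = 2.41e-06). Against 66cl4, 4T1 was higher by 1.71 (SE 0.21, edgeR adjusted p = 5.90e-05) and 4T1.2 by 0.83 (SE 0.21, 0.00578). The last difference was lost with DESeq2 (adjusted p = 0.0738), as was that of -0.88 between 4T1.2 and 4T1 (edgeR adjusted p = 0.0156, DESeq2 0.144). The call of 4T1.2 over 66cl4 was also lost without the first 66cl4 library (log2 fold change 0.63). That of 4T1.2 against 4T1 was lost without either 4T1.2 library (-0.86 and -0.90). Leaving out the second 67NR library moved the pooled value to 4.35 and the value of 66cl4 against 67NR to 6.17. Ccl2 overlaps Gm17268 on the opposite strand, a gene with no row in the table, and whether strand was used in counting is not given in the sources used here.

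Ccl7 (Entrez 20306), which lies beside Ccl2 on chromosome 11 and also encodes a CCR2 ligand, was low throughout but had the same gap at 67NR. Counts were 18 and 10 in 4T1.2, 19 and 23 in 4T1, with 28 and 21 in 66cl4 against 1 and 1 in 67NR. Only 67NR was apart from all other libraries. Count ratios over 67NR were 12.1 (95% interval 3.06 to 105) for 4T1.2, 19.2 (5.0 to 164) for 4T1 and 26.7 (7.02 to 227) for 66cl4, counting error only. The pooled log2 fold change was 1.5 (SE 0.45, edgeR adjusted p = 0.0115), although the pools overlapped and 66cl4 had the highest mean. It was no longer called without the second 67NR library (1.30, edgeR adjusted p = 0.0857). The step from 66cl4 down to 4T1.2 was -1.13 (SE 0.40, edgeR adjusted p = 0.0282), and DESeq2 gave 0.123 for it.

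Ccl9 (Entrez 20308, chr11:83572917-83578636), the gene for MIP-1 gamma, had the opposite pattern to Ccl2. Its counts were 16 and 19 in 4T1.2, 7 and 4 in 4T1, with 69 and 81 in 66cl4 against 107 and 122 in 67NR, or 0.308 ± 0.0377, 0.100 ± 0.0200, 1.66 ± 0.200 and 2.45 ± 0.666 CPM (SD, n = 2). No 2 lines overlapped, and both metastatic lines were below the other pair. Pooled, 4T1/4T1.2 differed from the other pair by -3.48 on the log2 scale (SE 0.24, edgeR adjusted p = 4.54e-07). 4T1.2 exceeded 4T1 by 1.57 (SE 0.48, edgeR adjusted p = 0.0456), a call lost under 10 of the 16 alternatives that could test it, with p-values up to 0.169. 66cl4 and 67NR differed by -0.53 (SE 0.24, edgeR adjusted p = 0.0979).

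Ccl20 (Entrez 20297, chr1:83116766-83119167) was present in the metastatic pair and almost absent from the other. Its counts were 102 and 100 in 4T1.2, 553 and 469 in 4T1, with 1 and 0 in 66cl4 against 0 and 1 in 67NR. The pools did not overlap, and the ratio of summed counts was 522 (95% interval 144 to 4316, counting error only). The edgeR contrast of line means gave a log2 fold change of 8.31 (SE 0.31, edgeR adjusted p = 4.41e-09). Taken singly, count ratios over 67NR were 175 (95% interval 31.1 to 6950) for 4T1.2 and 936 (168 to 36997) for 4T1, counting error only. 4T1.2 had less than 4T1, at 1.78 ± 0.0226 against 9.58 ± 0.750 CPM (SD, n = 2). The log2 fold change between them was -2.43 (SE 0.19, edgeR adjusted p = 3.64e-05), which was the largest difference within the metastatic pair among the 9 tested genes.

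Cxcl16 (Entrez 66102, chr11:70454389-70459984), which encodes a membrane-anchored ligand and scavenger receptor, showed the same split. It was found at 8.73 and 9.43 CPM in 4T1.2 and 13.9 and 17.5 in 4T1, but at 0.132 and 0.312 in 66cl4 and 0.245 and 0.194 in 67NR, where counts were 6 to 14. In the pooled comparison Cxcl16 was higher by 5.76 on the log2 scale (SE 0.20, edgeR adjusted p = 2.17e-09). 4T1.2 was lower than 4T1 (log2 fold change -0.79, SE 0.17, edgeR adjusted p = 0.0120), lost without either 4T1.2 library (adjusted p up to 0.0938). 66cl4 and 67NR differed by 0.05 (SE 0.48, edgeR adjusted p = 0.95). Zmynd15 overlaps Cxcl16 on the opposite strand and 15.4% of the 75-base stretches of Cxcl16 are shared. Zmynd15 had 24 to 34 counts in 4T1 and 4T1.2, beside 496 to 847 for Cxcl16, and 4 to 17 in the other libraries, where Cxcl16 had 6 to 14. The part of Zmynd15 in the Cxcl16 counts was not tested.

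Cx3cl1 (Entrez 20312, chr8:94772180-94782427), the gene for fractalkine, was abundant in every line. Its levels were 57.6 and 47.7 CPM in the libraries of 4T1.2, 78.0 and 62.8 in those of 4T1, with 73.5 and 81.2 in 66cl4 against 33.9 and 33.0 in 67NR. 67NR lay below every other library, and 4T1 and 66cl4 overlapped. 66cl4 exceeded 67NR by 1.21 (SE 0.13, edgeR adjusted p = 6.69e-05), and 4T1 exceeded 67NR by 1.07 (SE 0.13, 5.18e-05). 4T1 and 66cl4 differed by -0.14 (SE 0.13, edgeR adjusted p = 0.363). The pooled log2 fold change was only 0.26 (SE 0.09, edgeR adjusted p = 0.0249), and its call was lost in 5 of 8 fits that left out 1 library, with p-values up to 0.0905.

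**Figure D3:**
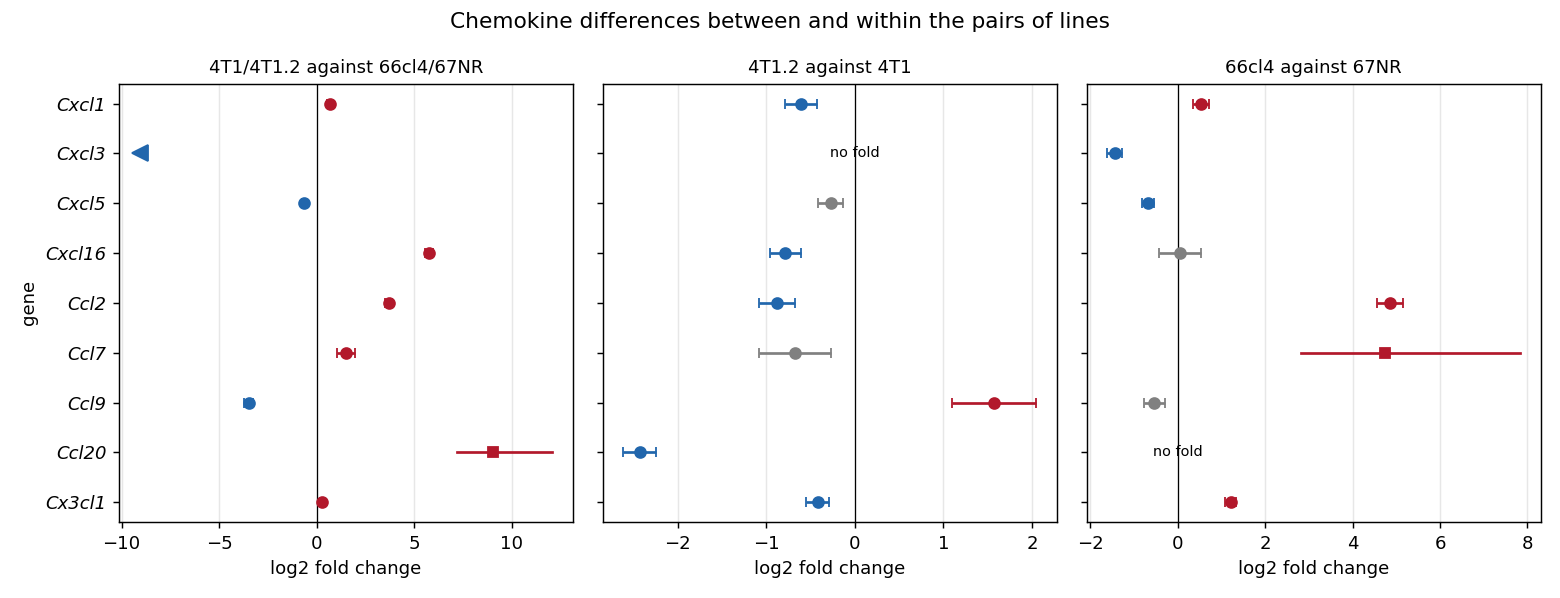
Log2 fold change of the 9 tested chemokine genes for the pooled comparison and within each pair of lines, with circles and bars for the edgeR estimate ± SE, squares and lines for count ratios with 95% intervals, and a triangle for a lower bound on the size of the difference. Red marks higher, blue lower and grey not called, and the horizontal scales differ between panels.

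Within the metastatic pair, 6 of 9 tested genes were called, compared with 19.3% of all genes (9.37% higher and 9.92% lower in 4T1.2). In 4T1.2, Ccl20, Ccl2, Cxcl16, Cxcl1 and Cx3cl1 were lower than in 4T1, and Ccl9 was higher. This count fell to 1 without the second 4T1.2 library and to 3 without the first 4T1.2 or the first 4T1 library. Over all genes tested, calls also became fewer without either 4T1.2 library, but more without the first 4T1 library. Among the chemokines, Ccl20 alone was called in every alternative that kept it in the test. Between 66cl4 and 67NR, 6 of 9 were called, beside 44.6% of all genes (22.2% higher and 22.4% lower), with Ccl2, Ccl7, Cx3cl1 and Cxcl1 higher and Cxcl3 and Cxcl5 lower in 66cl4. Across the split, 4T1.2 against 67NR gave 6 genes higher and 3 lower, beside 33.7% and 34.1% of all genes and 67.9% in either direction. 4T1.2 against 66cl4 gave 3 higher and 5 lower, beside 34.3% and 34.5% (68.8% in either direction). 4T1 against 67NR gave 6 higher and 3 lower, beside 33.9% and 34.4% (68.2%), and 4T1 against 66cl4 gave 4 higher and 2 lower, beside 34.9% and 35.2% (70.1%). Any difference among the lines was called for all 9 tested genes and for 84.8% of all genes. These comparisons share libraries.

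Levels of different genes were compared per length, as RPKM. Summed over the 10 genes, 4T1 had the highest total, at 254 and 236 RPKM, while the other lines had 173 and 141 (4T1.2), 140 and 171 (66cl4), and 145 and 130 (67NR). The CXCR2 ligands Cxcl1, Cxcl2, Cxcl3 and Cxcl5 made up 91.6% and 90.6% of the sum in 67NR, 70.2% and 70.9% in 66cl4, 65.6% and 59.6% in 4T1.2, and 58.6% and 55.1% in 4T1. Ccl2 made up 20.1% to 27.8% in the metastatic pair, 12.1% and 13.2% in 66cl4, and 0.186% and 0.724% in 67NR. In RPKM, Cxcl1 exceeded Cxcl5 in 4T1.2 (65.5 against 33.0), 4T1 (99.7 against 39.8) and 66cl4 (60.8 against 44.4), and the order was the reverse in 67NR (42.0 against 71.3). These shares are given without a test.

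**Figure D4:**
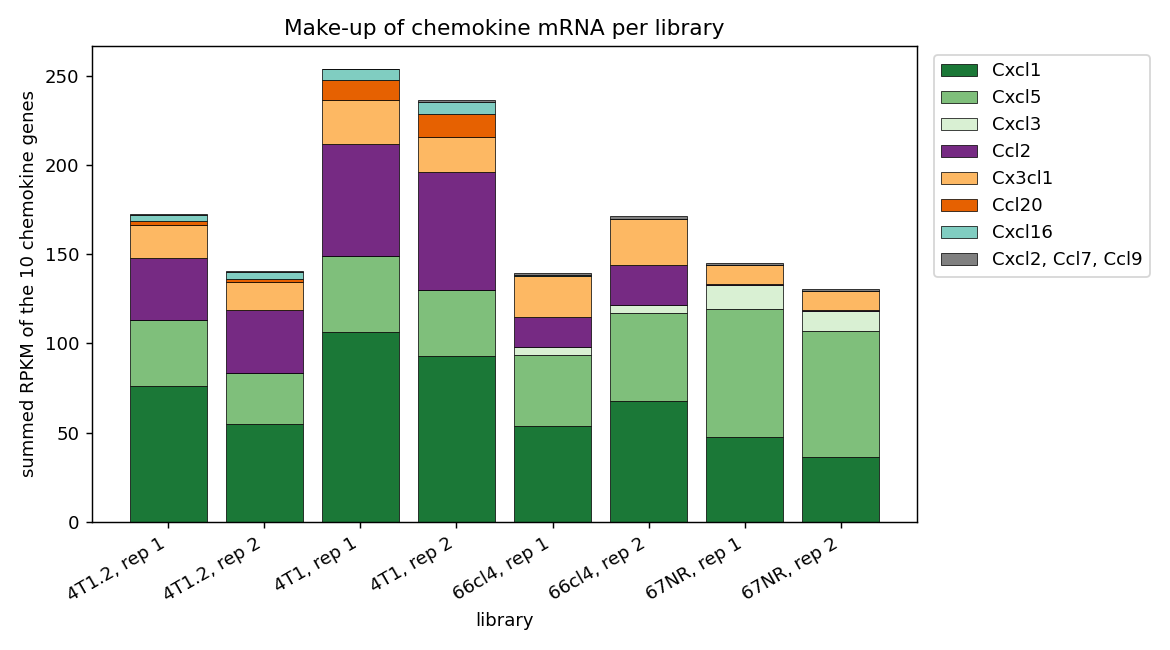
Stacked bars of RPKM for the 10 chemokine genes in each of the 8 libraries, with the summed RPKM on the vertical axis starting at 0. Cxcl1 and Cxcl5 make up most of every bar, Ccl2 forms a visible block in all lines but 67NR, and Cxcl3 is visible only in 66cl4 and 67NR.

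The receptors for these ligands were not expressed at a level that could be tested. None of the 8 receptor genes passed the filter, no receptor had more than 11 counts in any library, and Cxcr1 and Ccr2 had no count anywhere. Atypical receptors, which bind chemokines without G protein signalling or scavenge them, passed for 3 of 5 genes. Ccrl2, at 145 to 196 counts in 4T1 and 4T1.2 and 3 to 11 in the others, was higher by 4.26 (SE 0.23, edgeR adjusted p = 8.43e-08). Ackr4 was lower (log2 fold change -4.63, SE 0.35, edgeR adjusted p = 9.35e-07). Ackr3 was lower in the pooled comparison (-0.79, SE 0.09, edgeR adjusted p = 2.30e-05), and lower than 67NR in 4T1.2 (-2.02) and 4T1 (-1.25). Against 66cl4, Ackr3 was lower in 4T1.2 (-0.33, edgeR adjusted p = 0.0429) but higher in 4T1 (0.43, 0.0125).

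Of 8 genes for proteases and cofactors linked to release of membrane-anchored ligands or to chemokine processing, 6 were tested and all were called, 3 higher and 3 lower, with a median of -0.10. In the comparison of 4T1/4T1.2 with 66cl4/67NR, 76.8% of all genes tested were called, 38.1% higher and 38.6% lower. Mmp9, which encodes gelatinase B, was at 171 to 216 CPM in 4T1 and 4T1.2 and at most 2.43 CPM in the other libraries, a log2 fold change of 7.77 (SE 0.13, edgeR adjusted p = 2.05e-11). Mmp2 was lower (log2 fold change -3.02, SE 0.13, edgeR adjusted p = 1.30e-08). Adam17, a sheddase of CX3CL1, was higher by 0.82 (SE 0.06, edgeR adjusted p = 1.41e-06), and Rhbdf1, a cofactor of ADAM17, was lower (log2 fold change -0.58, SE 0.08, 6.41e-05).

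Among 25 other chemokine ligand genes, 10 were tested, of which 5 were higher, 3 lower and 2 not called, with a median of 0.55. Over all genes tested in this comparison of 4T1/4T1.2 with 66cl4/67NR, 38.1% were called higher and 38.6% lower. Cxcl12, whose product retains haematopoietic cells in marrow through CXCR4, had 1240 to 1595 CPM in 66cl4 and 67NR and 4 to 27 counts in 4T1 and 4T1.2 (edgeR adjusted p = 2.88e-10). Ccl17, a ligand of CCR4, was lower in the pooled comparison (log2 fold change -2.36, SE 0.34, edgeR adjusted p = 0.000139). Against 67NR it was not called, at -1.19 for 4T1.2 (edgeR adjusted p = 0.0732) and -1.10 for 4T1 (0.0940). For 4T1.2 against 66cl4 it was -3.62 (edgeR adjusted p = 2.70e-05). Receptors and adaptors upstream of chemokine transcription were all tested, and 3 of 13 were higher, 5 lower and 5 not called, with a median of -0.05. Il1r1, the interleukin-1 receptor, was at 102 to 120 CPM in 4T1 and 4T1.2, with 20.2 and 20.8 in 66cl4 against 6.93 and 9.02 in 67NR, a log2 fold change of 3.11 (SE 0.09, edgeR adjusted p = 8.32e-10). Its co-receptor Il1rap was lower (log2 fold change -1.64, SE 0.08, edgeR adjusted p = 4.27e-08), Tlr2 was higher by 1.37 (SE 0.08, 1.47e-07) and Ifngr1 was lower (log2 fold change -1.02, SE 0.06, 1.34e-07).

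The genes with the most similar profiles over the 8 libraries were found by the root mean square difference in centred log2 CPM, for each chemokine with at least 1 CPM in its highest line. For Cxcl3 these were Gask1b (0.167) and Bnc2 (0.225), for Cxcl16 Prss8 (0.209) and Krt17 (0.211), for Ccl20 Slc7a4 (0.316) and Marveld2 (0.331), and for Ccl9 Rgl1 (0.203) and Adgra2 (0.300). The nearest gene to Cxcl1 was Klf10 (0.106), to Cxcl5 Cdr2l (0.0804), to Cx3cl1 Ift122 (0.106) and to Ccl2 Msrb2 (0.462). None of these nearest genes was itself among the 10 chemokines.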

How the data were processed

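RNA was sequenced from 2 biological replicates of each of 4 mouse mammary tumour lines (TruSeq RNA v2). The labels spell 66cl4 with a digit in place of the letter l. The authors aligned reads to mm10 with Rsubread (version 1.34.4 in the processing notes) and deposited raw counts per Entrez gene from featureCounts. Here, 13927 genes were tested after filterByExpr (15269 genes) and removal of ribosomal, predicted and unmatched identifiers (93.0% of identifiers matched a gene entry). edgeR 4.0.16 (R 4.3.3, TMM, quasi-likelihood F-test, prior count 0.125, 4 residual degrees of freedom) was fitted with a mean per line, and p-values were adjusted by Benjamini-Hochberg over all genes tested. CPM and RPKM were computed from the deposited counts, RPKM with the deposited gene lengths. SEs are approximate, from the F statistic. Where a group had 0 counts, a fold is a bound against 3 counts; with 1 to 3 counts, a count ratio with an exact 95% interval is given, counting error only. The tests were checked on simulated data. Alternatives were DESeq2 1.42.0, limma-voom (limma 3.58.1), other filters, thinning, a replicate block and leaving out each library. All 10 chemokines are named, and up to 4 genes per other list by largest change. The chemokines and the lists were chosen with earlier results of these data known.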

Additional observations from a re-analysis of the deposited data

How the results depend on the processing

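Of 997 log2 fold changes recomputed for the 9 tested chemokine genes, 941 kept their direction and side of the threshold, 48 lost their call, 1 gained one and 7 changed sign. Requiring at least 10 counts in every library left Cxcl1, Cxcl5 and Cx3cl1, of which 3 were called in the pooled comparison, 3 for any difference, 3 for 4T1.2 against 67NR, 2 for 4T1.2 against 66cl4, 3 for 4T1 against 67NR, 1 for 4T1 against 66cl4, 1 for 4T1.2 against 4T1 and 3 for 66cl4 against 67NR. Fewer genes were tested, and for 4T1.2 against 4T1 the call of Cxcl1 was also lost (-0.62, edgeR adjusted p = 0.0523). Of all 11228 genes tested under this filter, 8440 were called in the pooled comparison and 1990 for 4T1.2 against 4T1. Leaving out each library in turn gave 1 to 5 called genes for 4T1.2 against 4T1, and 7 to 9 for the pooled comparison.

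The values that changed sign were not called in the first place. Over the fits that left out 1 library, Cxcl1, 4T1.2 against 66cl4, ran from -0.13 to 0.34, and was negative without the first 4T1.2 or the first 66cl4 library (-0.05). Cxcl5, 4T1 against 66cl4, ran from -0.30 to 0.0052 (without the second 66cl4 library), and Cx3cl1, in the same comparison, from -0.30 to 0.025 (without the second 4T1 library). Cxcl16, 66cl4 against 67NR, ran from -0.68 (without the second 66cl4 library) to 0.54, was -0.14 without the second 67NR library and -0.066 with limma-voom, and rests on 6 to 14 counts. The cause was not tested. Ccl9, 66cl4 against 67NR, was called without the second 67NR library (-0.81, edgeR adjusted p = 0.0451).

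Replicate numbers were shared between lines, but deviations of same-numbered libraries correlated between -0.12 and 0.27 over the 6 pairs of lines, so the numbers were not taken to pair the samples. With a replicate block, 5 chemokine genes were called for 4T1.2 against 4T1 in place of 6, as Ccl9 gave 1.58 with an edgeR adjusted p of 0.0530. Every other chemokine call was kept under the block. Cxcl2 did not pass the filter on low counts, and folds against lines with 0 to 3 counts are bounds or wide count ratios.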

Other observations

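Further gene groups were counted in the comparison of 4T1/4T1.2 with 66cl4/67NR, in which 38.1% of all genes tested were called higher and 38.6% lower. Myeloid growth factors make and sustain the cells that these chemokines attract, and 2 of 6 were higher, 3 lower and 1 not called, with a median of -0.43. Csf3, the gene for G-CSF, was at 17.1 to 22.8 CPM in 4T1 and 4T1.2 and at most 1.00 CPM in the other libraries, a log2 fold change of 4.59 (SE 0.15, edgeR adjusted p = 1.46e-09). Csf1, the gene for M-CSF, went the other way, at 130 to 266 CPM in 4T1 and 4T1.2 and 845 to 994 CPM in 66cl4 and 67NR, a log2 fold change of -2.31 (SE 0.10, edgeR adjusted p = 1.61e-08). Csf2, the gene for GM-CSF, was higher by 2.83 (SE 0.38, edgeR adjusted p = 7.72e-05) on at most 33 counts, and Flt3l was lower (log2 fold change -0.84, SE 0.10, 2.20e-05).

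Of 10 genes for NF-kappaB subunits and feedback regulators, 3 were higher, 5 lower and 2 not called, with a median of -0.16. Nfkb2 was lower (log2 fold change -1.19, SE 0.07, edgeR adjusted p = 1.16e-07) and Nfkbiz, a nuclear cofactor, likewise (-1.02, SE 0.13, 6.20e-05). The inhibitors Nfkbie and Tnfaip3 were higher by 0.90 (SE 0.07, edgeR adjusted p = 1.57e-06) and 0.77 (SE 0.11, 8.93e-05). Of 7 regulators of mRNA decay, 1 was higher, 4 lower and 2 not called, with a median of -0.54. Zfp36l2 was lower (log2 fold change -0.99, SE 0.11, edgeR adjusted p = 2.19e-05), and Zc3h12a and Zfp36, whose products degrade cytokine mRNAs, likewise (-0.79, SE 0.13, 0.000260, and -0.79, SE 0.09, 2.80e-05). Zfp36 was not called against 67NR, at -0.07 for 4T1.2 (edgeR adjusted p = 0.658) and 0.13 for 4T1 (0.386). For 4T1.2 against 66cl4 it was -1.71 (edgeR adjusted p = 1.91e-06). Khsrp was lower (log2 fold change -0.54, SE 0.13, edgeR adjusted p = 0.00287). Of 6 epithelial markers, 5 were tested and all 5 were higher in 4T1/4T1.2. The untested Krt5 had 12 counts over both 67NR libraries and 2 over those of 4T1.2, a ratio of 6.92 (95% interval 1.54 to 63.7, counting error only). Of 6 endothelial markers, 3 were tested and all 3 were higher in 4T1/4T1.2. Tie1 had 787 counts there against 2, a ratio of 336 (95% interval 92.6 to 2777, counting error only). Cdh5 was higher by 3.60 on the log2 scale (SE 0.34, edgeR adjusted p = 6.28e-06) and Pecam1 by 1.00 (SE 0.32, 0.0170). Against 66cl4, Pecam1 was not called, at 0.61 for 4T1.2 (edgeR adjusted p = 0.247) and 0.78 for 4T1 (0.135). Of the untested ones, Emcn had 8 and 5 counts in 66cl4 and 0 in every other library, Tek had at most 5 counts in any library and Kdr at most 1.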
